A study of Mus musculus with 30 samples.

Results

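The genes described here are 10 members of the TNF superfamily: the ligands *Tnfsf10* (TRAIL), *Tnfsf11* (RANKL) and *Tnfsf13b* (BAFF), the receptors *Tnfrsf1a*, *Tnfrsf1b*, *Tnfrsf21*, *Ltbr*, *Cd40* and *Fas*, and the soluble decoy receptor *Tnfrsf11b* (osteoprotegerin). They were chosen by name, with earlier results of these data known, and make up 10 of the 32342 genes counted in these libraries. Their mRNA levels are given in every sorted mesenchymal population of the mouse small intestine (SI) and colon, in order of role, and are followed by the other genes of the pathway.

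TNF superfamily ligands are mostly trimeric proteins on the surface of a cell or shed from it, and they cluster matching receptors on neighbouring cells. The clustered receptors recruit TRAF adaptors and death domain proteins, through which they switch on NF-κB or start apoptosis. In the gut, stromal cells that receive TNF or lymphotoxin signals are known to make adhesion molecules and chemokines that draw in and place lymphocytes.

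The libraries are bulk RNA-seq of cells sorted from the lamina propria of untreated C57BL6/Nrj mice aged 8 to 10 weeks, with 3 replicates per population from the intestines of 3 individual mice. The study describes SI and colon subsets as sorted from the same mice, and the labels do not say whether a replicate number marks the same mouse in every population. Cells that were dead, or that carried lineage markers, CD31, BP3, EpCAM or high NCAM, were left out of every sort. Pericytes of the SI and of the colon were PDGFRα-ESAM-1+PDPN-, and SI smooth muscle cells (SMC) were PDGFRα-ESAM-1+PDPN+. The SI fibroblasts (FB) were ESAM-1- and were split into CD34+ FB (PDGFRα intCD34+), *Fgfr2*+ FB (PDGFRα intCD34-) and PDGFRα hi FB (PDGFRα hiCD34-). The colon FB were also ESAM-1- and were split into CD81+ FB (PDPN intCD34+CD90-), CD90+ FB (CD34+PDPN hiCD90+), *Fgfr2*+ FB (PDPN hiCD34+CD90-) and PDGFRα hi FB (PDPN+CD34-). The SI CD34+ gate holds both *Igfbp5*+ and CD81+ FB, the colon has no SMC sample, and the gates of *Fgfr2*+ FB and of PDGFRα hi FB differ between the tissues.

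Counts per library ran from 2245052 to 19096945, with a median of 9601683. In the SI, the libraries held 6185421, 9075187 and 7860140 counts for pericytes, 8866828, 9512574 and 13507159 for SMC, 11729938, 11930055 and 9432531 for CD34+ FB, 15098412, 10286761 and 2245052 for *Fgfr2*+ FB, and 7327358, 18148945 and 8041204 for PDGFRα hi FB. In the colon, they held 9225411, 9314458 and 13866610 for pericytes, 16181861, 18710840 and 13102446 for CD81+ FB, 19096945, 15840424 and 14456220 for CD90+ FB, 8740291, 9785938 and 9690792 for *Fgfr2*+ FB, and 7248567, 6865683 and 6986681 for PDGFRα hi FB. Levels are given as counts-per-million (CPM) values, that is counts divided by the library total after TMM scaling, which evens out libraries whose most abundant genes differ. Values are listed in the order of replicates 1, 2 and 3, and that order carries no meaning of its own. A gene with no count in a library can still be present at up to 3 counts, which is 0.142 CPM in the deepest library and 1.04 CPM in the shallowest.

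Transcripts of the sorting markers were read beside the names of the populations. *Pdgfra* stood at 6207, 6855 and 6490 CPM in SI PDGFRα hi FB and at 2388, 2399 and 2545 CPM in colon PDGFRα hi FB, above the 547 to 1103 CPM of the other FB. The pericyte gene *Notch3* stood at 5488, 7296 and 5745 CPM in SI pericytes and at 2662, 4276 and 3308 CPM in colon pericytes, with at most 77.5 CPM elsewhere. The smooth muscle gene *Actg2* stood at 1999, 1858 and 1281 CPM in SI SMC and at most at 216 CPM elsewhere, whereas *Myh11* was abundant in SMC (12030, 9297 and 13183 CPM) and also in colon pericytes (6869, 6942 and 7169 CPM). *Thy1*, which encodes CD90, stood at 255, 175 and 159 CPM in colon CD90+ FB and at 121, 117 and 58.4 CPM in the CD81+ FB gated as CD90-. By correlation, every SI *Fgfr2*+ FB library was closest to SI CD34+ FB. Every colon *Fgfr2*+ FB and colon CD81+ FB library was closest to colon CD90+ FB or SI CD34+ FB, and SI pericytes replicate 3 was closest to colon pericytes. Some libraries stood apart from others of their population. *Cd79a* was at 200 CPM in SI pericytes replicate 1 against 0.884 and 1.60 CPM in its replicates, and *Csf1r* was at 49.7 CPM in colon pericytes replicate 2 against 2.37 and 0.575 CPM in its replicates. SI SMC replicate 3 had a TMM factor of 0.681, and SI *Fgfr2*+ FB replicate 3 had the smallest total. Fits without these 4 libraries leave out those of them that the fit holds, which is only colon pericytes replicate 2 in the colon and only SI *Fgfr2*+ FB replicate 3 where *Fgfr2*+ FB and PDGFRα hi FB of both tissues were fitted.

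The tests used edgeR. A gene was called when its adjusted p, which limits the share of false calls among all genes tested, was below 0.05 and its log2 fold change was beyond 1.5 in either direction, or, over more than a pair of populations, when the log2 range between the highest and lowest fitted population was above 1.5. Over all 10 populations, 5 of the 9 members tested were called, beside 25.7% of all 17555 genes tested. The median log2 range was 3.99 for the members and 2.98 for all genes. *Tnfsf11* had too few counts to be tested. A higher level of a transcript in a sorted population can come from more of its cells holding it or from more RNA per cell, and those cannot be told apart in bulk libraries.

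Among the ligands, *Tnfsf13b* encodes BAFF, a survival factor for B cells, and its transcript was higher in FB than in pericytes of both tissues. In SI FB, *Tnfsf13b* stood at 214, 76.1 and 118 CPM in *Fgfr2*+ FB, at 43.9, 48.8 and 29.2 CPM in CD34+ FB and at 51.2, 38.9 and 36.8 CPM in PDGFRα hi FB. In colon FB, *Tnfsf13b* stood at 207, 183 and 141 CPM in CD90+ FB, at 59.6, 121 and 72.1 CPM in *Fgfr2*+ FB, at 28.4, 50.9 and 15.6 CPM in CD81+ FB and at 10.7, 19.9 and 14.4 CPM in PDGFRα hi FB. In the mural cells, *Tnfsf13b* stood at 9.29, 22.4 and 4.29 CPM in SI SMC, at 2.15, 3.41 and 5.54 CPM in SI pericytes and at 0.968, 0.378 and 0.718 CPM in colon pericytes. Colon CD90+ FB (mean 177 CPM), SI *Fgfr2*+ FB (136) and colon *Fgfr2*+ FB (84.2) formed the top of the order and overlapped from each to the next, and no library of theirs came as low as any of SI PDGFRα hi FB (42.3). Below that gap followed SI CD34+ FB (40.6), colon CD81+ FB (31.6), colon PDGFRα hi FB (15), SI SMC (12) and SI pericytes (3.70), each overlapping its neighbour, and then, after a second gap, colon pericytes (0.688). The log2 range over the 10 populations was 7.97 (edgeR adjusted p = 1.79e-09). Of the *Tnfsf13b* counts, 35.6% lay on protein-coding transcripts and 29.2% on the retained-intron transcript Tnfsf13b-204, so the gene sum holds RNA that does not encode the protein. The coding share differed between the populations, from 15.4% in SI *Fgfr2*+ FB to 45.8% in colon PDGFRα hi FB. The split between transcripts is an estimate. On protein-coding transcripts, colon CD90+ FB (73.3, 91.2 and 65.3 CPM) lay above every other library, and SI *Fgfr2*+ FB (32.3, 7.77 and 37.0 CPM) overlapped SI PDGFRα hi FB (19.8, 16.8 and 17.6 CPM), so the gap between these 2 populations did not hold. The log2 range of coding *Tnfsf13b* was 8.26 (edgeR adjusted p = 1.46e-05).

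*Tnfsf10* encodes TRAIL, a ligand that can start apoptosis in cells with death receptors, and its 3 highest means were those of the SI FB populations. In the SI, *Tnfsf10* stood at 9.02, 5.33 and 33.9 CPM in *Fgfr2*+ FB, at 13.7, 12.6 and 15.4 CPM in PDGFRα hi FB, at 10.5, 9.77 and 4.84 CPM in CD34+ FB, at 4.22, 5.97 and 9.57 CPM in SMC and at 4.08, 7.58 and 4.43 CPM in pericytes. In the colon, *Tnfsf10* stood at 5.39, 4.08 and 6.65 CPM in PDGFRα hi FB, at 7.65, 4.35 and 2.41 CPM in CD81+ FB, at 3.44, 3.53 and 4.09 CPM in pericytes, at 3.17, 3.33 and 4.13 CPM in CD90+ FB and at 2.69, 2.24 and 1.33 CPM in *Fgfr2*+ FB. The highest means were 16.1 CPM in SI *Fgfr2*+ FB, where replicate 3 held the highest value, and 13.9 CPM in SI PDGFRα hi FB. The other SI *Fgfr2*+ FB replicates (9.02 and 5.33 CPM) lay below every library of SI PDGFRα hi FB, so the first place rests on replicate 3. Next came 8.36 CPM in SI CD34+ FB, which lay apart from SI PDGFRα hi FB but overlapped SI *Fgfr2*+ FB. It was followed by 6.59 in SI SMC, 5.37 in colon PDGFRα hi FB, 5.36 in SI pericytes, 4.81 in colon CD81+ FB, 3.69 in colon pericytes and 3.54 in colon CD90+ FB. Colon *Fgfr2*+ FB (2.09) lay below the last of these without overlap. The log2 range was 2.93 (edgeR adjusted p = 0.0448; range 3.79 with length-scaled counts), and this call was lost in 21 of the 30 fits that left out 1 library. In the SI, the edgeR adjusted p without the library was 0.0686, 0.0691 and 0.0549 for CD34+ FB replicates 1 to 3, 0.0822, 0.0762 and 0.0817 for PDGFRα hi FB replicates 1 to 3, 0.0555 for SMC replicate 2 and 0.12 for *Fgfr2*+ FB replicate 3. In the colon, the edgeR adjusted p without the library was 0.0537, 0.0511 and 0.0517 for pericytes replicates 1 to 3, 0.0543 for CD81+ FB replicate 2, 0.0722, 0.0717 and 0.0654 for CD90+ FB replicates 1 to 3, 0.0605, 0.0796 and 0.0859 for *Fgfr2*+ FB replicates 1 to 3, and 0.0629, 0.058 and 0.0591 for PDGFRα hi FB replicates 1 to 3. The call for *Tnfsf10* was also lost with no filter on low counts, with the replicate number as a block (edgeR adjusted p = 0.096) and without the 4 libraries that stood apart. The edgeR or DESeq2 adjusted p of *Tnfsf10* ran from 4.59e-05 to 0.244 over the alternative settings.

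*Tnfsf11* encodes RANKL, the ligand of RANK. Of the 30 libraries, 27 held no *Tnfsf11* count, and the others held 0.107 CPM (SI CD34+ FB replicate 3), 1.22 CPM (colon PDGFRα hi FB replicate 1, 10 counts) and 0.136 CPM (colon PDGFRα hi FB replicate 3). *Tnfsf11* was thus near the limit of detection in every population. Of the 18 ligand genes of the superfamily, 10 could be tested over the 10 populations and 5 were called (edgeR), beside 25.7% of all genes. The median log2 range of these ligand genes was 7.26, against 2.98 for all genes, and for genes with almost no counts in a population this range depends on the prior count of the model. The ligand genes *Fasl*, *Lta*, *Ltb* and *Tnfsf8* had at most 3 counts in every library. *Tnfsf12* had the highest mean of the ligand genes (72.6 CPM), but 47.4% of its 31-base stretches also occur in the read-through gene *Tnfsfm13*, so its level is uncertain.

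**Figure D1:**
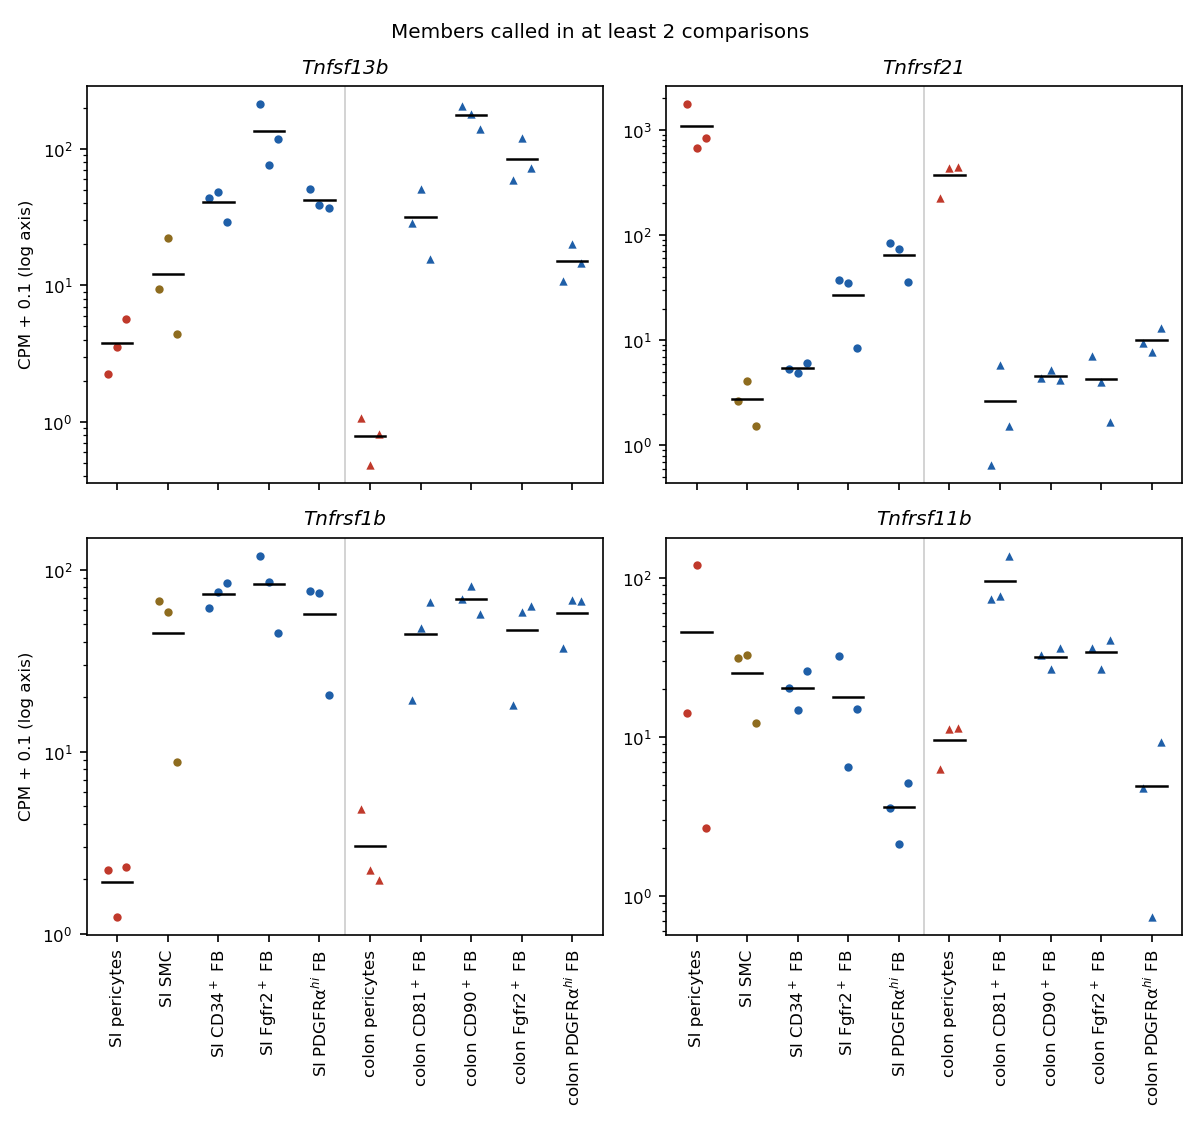
Levels of *Tnfsf13b*, *Tnfrsf21*, *Tnfrsf1b* and *Tnfrsf11b*, members called over the 10 populations, as CPM + 0.1 on a log axis. Each mark is 1 library (circles SI, triangles colon; red pericytes, brown SMC, blue FB), and each bar is the mean of 3 libraries, from 0.688 to 177 CPM for *Tnfsf13b* and from 2.54 to 1092 CPM for *Tnfrsf21*.

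Of the receptors, *Tnfrsf21* encodes the death domain receptor DR6, and its transcript was highest in the pericytes of both tissues. In the mural cells, *Tnfrsf21* stood at 1762, 675 and 838 CPM in SI pericytes, at 227, 433 and 449 CPM in colon pericytes and at 2.53, 3.95 and 1.43 CPM in SI SMC. In SI FB, *Tnfrsf21* stood at 83.7, 73.4 and 35.4 CPM in PDGFRα hi FB, at 37.5, 35.2 and 8.30 CPM in *Fgfr2*+ FB and at 5.24, 4.80 and 5.91 CPM in CD34+ FB. In colon FB, *Tnfrsf21* stood at 9.31, 7.66 and 13.0 CPM in PDGFRα hi FB, at 4.3, 5.14 and 4.07 CPM in CD90+ FB, at 7.03, 3.90 and 1.55 CPM in *Fgfr2*+ FB and at 0.547, 5.67 and 1.42 CPM in CD81+ FB. SI pericytes (mean 1092 CPM, SD 586, n = 3) lay above colon pericytes (370) without overlap, and colon pericytes lay above every FB and SMC library. SI PDGFRα hi FB (64.2), SI *Fgfr2*+ FB (27.0) and colon PDGFRα hi FB (10.0) came next and overlapped from each to the next. After a further gap the other 5 populations lay between 2.54 and 5.32 CPM, each overlapping its neighbour. The log2 range of *Tnfrsf21* was 8.72 (edgeR adjusted p = 6.02e-13), and 10.1 without colon CD81+ FB replicate 2.

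*Tnfrsf1b* encodes TNFR2, the TNF receptor without a death domain, and its transcript was lower in pericytes than in every other population. In the mural cells, *Tnfrsf1b* stood at 2.15, 1.14 and 2.21 CPM in SI pericytes, at 4.73, 2.14 and 1.87 CPM in colon pericytes and at 67.2, 58.7 and 8.69 CPM in SI SMC. In SI FB, *Tnfrsf1b* stood at 119, 85.5 and 44.6 CPM in *Fgfr2*+ FB, at 61.5, 75.4 and 84.4 CPM in CD34+ FB and at 76.4, 74.6 and 20.4 CPM in PDGFRα hi FB. In colon FB, *Tnfrsf1b* stood at 69.1, 80.7 and 56.9 CPM in CD90+ FB, at 37.2, 68.4 and 67.2 CPM in PDGFRα hi FB, at 18, 58.3 and 62.8 CPM in *Fgfr2*+ FB and at 19.1, 47.8 and 66.0 CPM in CD81+ FB. The 8 FB and SMC populations had means from 83.1 CPM (SI *Fgfr2*+ FB) to 44.3 CPM (colon CD81+ FB) with no gap between neighbours, and colon pericytes (2.91) and SI pericytes (1.83), which overlapped, lay below every library of the others. The log2 range of *Tnfrsf1b* was 5.5 (edgeR adjusted p = 1.47e-05), and 6.52 with length-scaled counts.

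*Tnfrsf1a* (TNFR1, the TNF receptor with a death domain), *Ltbr* (the lymphotoxin β receptor), *Cd40* (the receptor of CD40 ligand) and *Fas* (a death receptor) were not called over the 10 populations, which does not show that their levels were equal. *Tnfrsf1a* ran from 4.18 to 181 CPM over the 30 libraries (median 76.2), with population means from 128 CPM in SI *Fgfr2*+ FB to 47.6 CPM in SI SMC (log2 range 1.43, edgeR adjusted p = 0.617). Replicates of *Tnfrsf1a* differed widely in colon CD81+ FB (14.5, 37.4 and 151 CPM) and in SI SMC (69.0, 69.7 and 4.18 CPM). *Ltbr* ran from 1.21 to 70.7 CPM (median 35.0), with means from 57.1 CPM in SI PDGFRα hi FB to 15.2 CPM in SI *Fgfr2*+ FB (log2 range 1.92, edgeR adjusted p = 0.481). *Cd40* ran from 2.11 to 39.1 CPM (median 13.7), with the highest means in SI pericytes (30.3) and colon pericytes (24.2) and the lowest in SI PDGFRα hi FB (8.37) (log2 range 1.85, edgeR adjusted p = 0.312). For *Tnfrsf1a*, *Ltbr*, *Cd40* and *Fas* alike, each population overlapped the next in the order of means. *Fas* ran from 0 to 44.4 CPM (median 6.84; log2 range 3.99, edgeR adjusted p = 0.382), and both extremes were in pericytes: SI pericytes held 44.4, 0.126 and 0.123 CPM and colon pericytes held 2.26, 0 and 0.503 CPM. Of the *Fas* counts of SI pericytes replicate 1, 99.5% lay on the 555-base transcript Fas-202, against 25.1% over all libraries. Without SI pericytes replicate 1, *Fas* was called over the 10 populations (log2 range 6.22, edgeR adjusted p = 0.0132), and without the 4 libraries that stood apart it was called too (6.58, edgeR adjusted p = 0.00339), with ranges that depend on the prior count of the model, since the SI pericytes left held 1 count each. Of the 28 receptor genes of the superfamily, 25 could be tested over the 10 populations, and 10 were called by edgeR, beside 25.7% of all genes, with a median log2 range of 3.99.

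**Figure D2:**
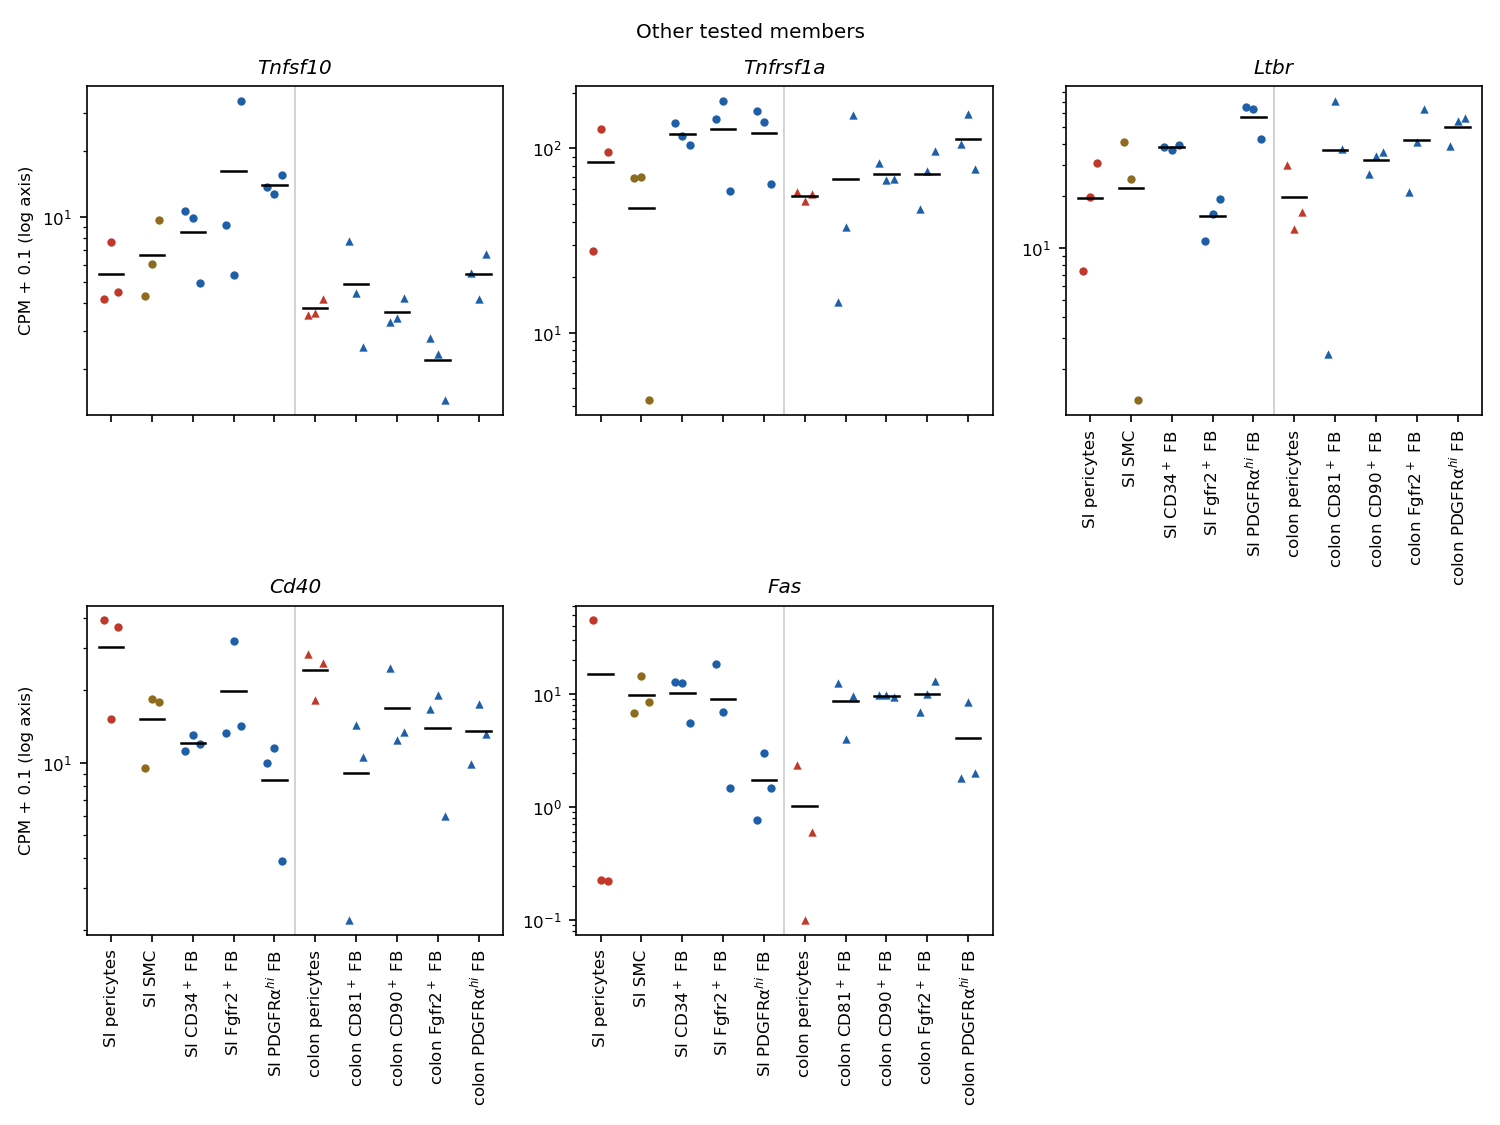
Levels of *Tnfsf10*, *Tnfrsf1a*, *Ltbr*, *Cd40* and *Fas* in the 30 libraries, as CPM + 0.1 on a log axis. Each mark is 1 library (circles SI, triangles colon; red pericytes, brown SMC, blue FB), and each bar is the mean of 3 libraries, with *Fas* running from 0 to 44.4 CPM.

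The decoy receptor *Tnfrsf11b* encodes osteoprotegerin, a secreted protein that binds RANKL and TRAIL. In the SI, *Tnfrsf11b* stood at 14.2, 120 and 2.58 CPM in pericytes, at 31.2, 32.7 and 12.2 CPM in SMC, at 20.4, 14.7 and 25.9 CPM in CD34+ FB, at 32.2, 6.41 and 14.9 CPM in *Fgfr2*+ FB and at 3.48, 2.03 and 5.05 CPM in PDGFRα hi FB. In the colon, *Tnfrsf11b* stood at 73.6, 77.3 and 138 CPM in CD81+ FB, at 36.2, 26.6 and 40.5 CPM in *Fgfr2*+ FB, at 32.7, 26.8 and 36.1 CPM in CD90+ FB, at 6.24, 11.1 and 11.3 CPM in pericytes and at 4.65, 0.638 and 9.23 CPM in PDGFRα hi FB. Colon CD81+ FB had the highest mean (96.5 CPM), followed by SI pericytes (45.7, from 2.58 to 120 CPM among the replicates), colon *Fgfr2*+ FB (34.4), colon CD90+ FB (31.9), SI SMC (25.4), SI CD34+ FB (20.3), SI *Fgfr2*+ FB (17.8), colon pericytes (9.54), colon PDGFRα hi FB (4.84) and SI PDGFRα hi FB (3.52). Each population overlapped the next in this order. The second place of SI pericytes rests on replicate 2, as the other replicates (14.2 and 2.58 CPM) lay below every library of colon *Fgfr2*+ FB and colon CD90+ FB. The log2 range of *Tnfrsf11b* was 4.78 (edgeR adjusted p = 0.00278).

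Compared between genes, levels were divided by the mean effective length of each gene (CPM per kb). On this CPM per kb scale, *Tnfrsf21* had the highest mean of the members in SI pericytes (319, SD 171, n = 3) and in colon pericytes (108), and *Tnfsf13b* had the highest in colon CD90+ FB (89.6) with transcripts of all kinds counted. *Tnfrsf1a* had the highest CPM per kb of the members in the other 7 populations, from 35.6 in SI SMC to 95.5 in SI *Fgfr2*+ FB. With the effective lengths of each library in place of their mean, the leading member was *Tnfsf13b* in SI *Fgfr2*+ FB (96.5 CPM per kb) and *Ltbr* in colon *Fgfr2*+ FB (62.1 CPM per kb), and *Tnfrsf1a* also lost the lead there to *Tnfsf13b* without SI *Fgfr2*+ FB replicate 2 or colon *Fgfr2*+ FB replicate 3. In colon CD81+ FB its mean of 50.6 CPM per kb (SD 54.8, n = 3) fell to 19.4 without replicate 3, where *Ltbr* led with 29.0 CPM per kb. So *Tnfrsf1a* cannot be placed first in these 3 populations. On protein-coding transcripts alone, *Tnfrsf21* again led in both pericyte populations, *Tnfrsf11b* led in colon CD81+ FB (36.8 CPM per kb), and *Tnfrsf1a* led in the other 7. Among them was colon CD90+ FB, with 38.9 CPM per kb for *Tnfrsf1a* and 20.8 for *Tnfsf13b*, so *Tnfsf13b* cannot be placed first there.

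Between the SI fibroblasts and the SI mural cells (pericytes and SMC), BAFF and TNFR2 transcripts were higher in FB. *Tnfsf13b* ran from 29.2 to 214 CPM in the 9 FB libraries and from 2.15 to 22.4 CPM in the 6 mural libraries, with no overlap, and rose 9.20-fold in FB (log2 fold change 3.2, SE 0.449, edgeR adjusted p = 0.000122; log2 2.84 on protein-coding transcripts, edgeR adjusted p = 0.013). *Tnfrsf1b* ran from 20.4 to 119 CPM in FB and from 1.14 to 67.2 CPM in mural cells, where all the higher values were those of SMC, and it rose 7.76-fold in FB (log2 2.96, SE 0.498, edgeR adjusted p = 0.000722; log2 3.57 with length-scaled counts). These were 2 of the 9 members tested, beside 8.61% of all 16232 genes, and the median log2 fold change was 0.63 for the members and 0.00 for all genes. *Tnfrsf21* had a log2 fold change of -1.36 (SE 0.345, edgeR adjusted p = 0.0171), short of the fold threshold, and it passed the threshold without SI pericytes replicate 2 (-1.50, edgeR adjusted p = 0.0101) or without SI SMC replicate 3 (-1.52, edgeR adjusted p = 0.0104). *Tnfrsf11b* had a log2 fold change of -1.65 (SE 0.626, edgeR adjusted p = 0.103) and was called only without SI pericytes replicate 3 among the left-out libraries (-1.93, edgeR adjusted p = 0.0229) and by DESeq2 (-1.69, DESeq2 adjusted p = 0.0364). *Fas* was not called with all libraries and had the lower level in FB (log2 -1.18, SE 0.920, edgeR adjusted p = 0.462; DESeq2 log2 -1.31, DESeq2 adjusted p = 0.34). Its direction turned without the 4 libraries that stood apart, where it was called higher in FB (log2 2.29, edgeR adjusted p = 0.0435). The SI pericytes left in that fit held 1 *Fas* count each, so the size of this value depends on the prior count of the model.

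Between the fibroblasts of the colon and the colon pericytes, BAFF and TNFR2 transcripts were again higher in FB, and the DR6 transcript was higher in pericytes. *Tnfsf13b* ran from 10.7 to 207 CPM in the 12 FB libraries against 0.378 to 0.968 CPM in the 3 pericyte libraries, and rose 73.0-fold (log2 6.19, SE 0.581, edgeR adjusted p = 5.32e-07; log2 6.39 on protein-coding transcripts, edgeR adjusted p = 4.7e-05). *Tnfrsf1b* ran from 18 to 80.7 CPM in FB against 1.87 to 4.73 CPM in pericytes, and rose 18.4-fold (log2 4.2, SE 0.598, edgeR adjusted p = 6.08e-05). *Tnfrsf21* ran from 0.547 to 13.0 CPM in FB against 227 to 449 CPM in pericytes, and was 79.0-fold lower in FB (log2 -6.30, SE 0.437, edgeR adjusted p = 1.36e-08). None of these 3 transcripts overlapped between the groups. With *Fas*, 4 of the 9 members tested were called, beside 16.6% of all 16456 genes, and the median log2 fold change was 1.02 for the members and -0.05 for all genes. *Fas* ran from 1.71 to 12.9 CPM in FB and from 0 to 2.26 CPM in pericytes, which overlap, and was 8.20-fold higher in FB (log2 3.04, SE 1.04, edgeR adjusted p = 0.048; log2 2.47 to 4.72 over the left-out libraries). The *Fas* call was lost in 13 of the 15 fits that left out 1 library, with an edgeR adjusted p of 0.0894 and 0.125 without pericytes replicates 2 and 3, 0.0532 and 0.058 without CD81+ FB replicates 1 and 3, 0.0691, 0.0697 and 0.068 without CD90+ FB replicates 1 to 3, 0.054, 0.0658 and 0.0676 without *Fgfr2*+ FB replicates 1 to 3, and 0.052, 0.0679 and 0.0555 without PDGFRα hi FB replicates 1 to 3. It was also lost with no filter on low counts, with the replicate number as a block (edgeR adjusted p = 0.0712) and with all 30 libraries in 1 model. Its adjusted p (edgeR or DESeq2) ran from 0.00081 to 0.105 over the alternative settings. *Tnfrsf11b* had a log2 fold change of 1.48 (SE 0.555, edgeR adjusted p = 0.07) and was called without colon PDGFRα hi FB replicate 2 (1.61, edgeR adjusted p = 0.0141).

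Markers of other cell types were summed in each library, and the sums were not tested. The 8 immune genes summed to 444, 100 and 114 CPM in SI pericytes and to 103, 176 and 61.1 CPM in colon pericytes, and to at most 69.2 CPM in every other library. *Cd68* was the most abundant immune gene in the SI pericytes (228, 75.8 and 42.1 CPM), and *Cd3e*, *Csf1r*, *Lyz2* and *Jchain* had no count in replicate 1. In the colon pericytes, *Cd68* led in replicate 1 (85.5 CPM) and replicate 3 (26.1 CPM) and *Lyz2* in replicate 2 (93.4 CPM), and *Cd3e* had no count in any of the 3. The 3 markers of interstitial cells of Cajal summed to 1159, 584 and 742 CPM in SI pericytes and to 808, 901 and 687 CPM in colon pericytes, where *Ano1* was the most abundant gene and *Kit* had no count in SI pericytes replicate 2 or in colon pericytes replicates 1 and 3. The same markers summed to 476, 427 and 504 CPM in SI PDGFRα hi FB, with *Etv1* as the most abundant gene. The 5 endothelial genes summed to 96.2, 132 and 100 CPM in SI pericytes, to 52.8, 110 and 108 CPM in colon pericytes and to 49.6, 43.8 and 204 CPM in SI SMC, with *Pecam1* at 165 CPM in SMC replicate 3. Epithelial genes summed to 30.1 CPM in SI pericytes replicate 2 and 31.6 CPM in colon pericytes replicate 2, both led by *Vil1* with no *Epcam* count, and to at most 5.19 CPM elsewhere. Mesothelial genes summed to at most 7.58 CPM. Whether the levels of *Tnfrsf21* or any other member in pericytes come from such cells was not tested.

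Between SI pericytes and SI SMC, the DR6 transcript was higher in pericytes and the TNFR2 transcript was higher in SMC. *Tnfrsf21*, at 1762, 675 and 838 CPM in pericytes and 2.53, 3.95 and 1.43 CPM in SMC, rose 408-fold in pericytes (log2 8.67, SE 0.734, edgeR adjusted p = 1.45e-06; log2 7.84 without the 4 libraries that stood apart). *Tnfrsf1b*, at 2.15, 1.14 and 2.21 CPM in pericytes and 67.2, 58.7 and 8.69 CPM in SMC, was 24.7-fold lower in pericytes (log2 -4.63, SE 0.796, edgeR adjusted p = 0.00115; log2 -5.24 without the 4 libraries that stood apart). Neither transcript overlapped between these populations, though *Tnfrsf1b* in SMC replicate 3 lay far below the other SMC libraries. These were 2 of the 9 members tested, beside 8.48% of all 16232 genes, and the median log2 fold change was 0.60 for the members and -0.02 for all genes. The *Tnfrsf1b* call was lost when only these populations were in the model (edgeR adjusted p = 0.0675; 1.2e-08 to 0.0675 over the alternative settings). *Tnfsf13b* had a log2 fold change of -1.70 (SE 0.630, edgeR adjusted p = 0.102), and it was called without SMC replicate 3 (-2.11, edgeR adjusted p = 0.0447) and by DESeq2 (-1.64, DESeq2 adjusted p = 0.0392). *Fas* was not called with all libraries, where its mean was higher in pericytes (14.9 CPM) than in SMC (9.76 CPM; log2 0.60, SE 1.45, edgeR adjusted p = 0.847; DESeq2 log2 0.79, DESeq2 adjusted p = 0.765). Its direction turned without SI pericytes replicate 1 (at least 26.1-fold lower in pericytes, edgeR adjusted p = 0.0126) and without the 4 libraries that stood apart (at least 28-fold lower, edgeR adjusted p = 0.00633), where it was called. The pericyte libraries left held 1 *Fas* count each, so these folds are lower bounds.

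**Figure D3:**
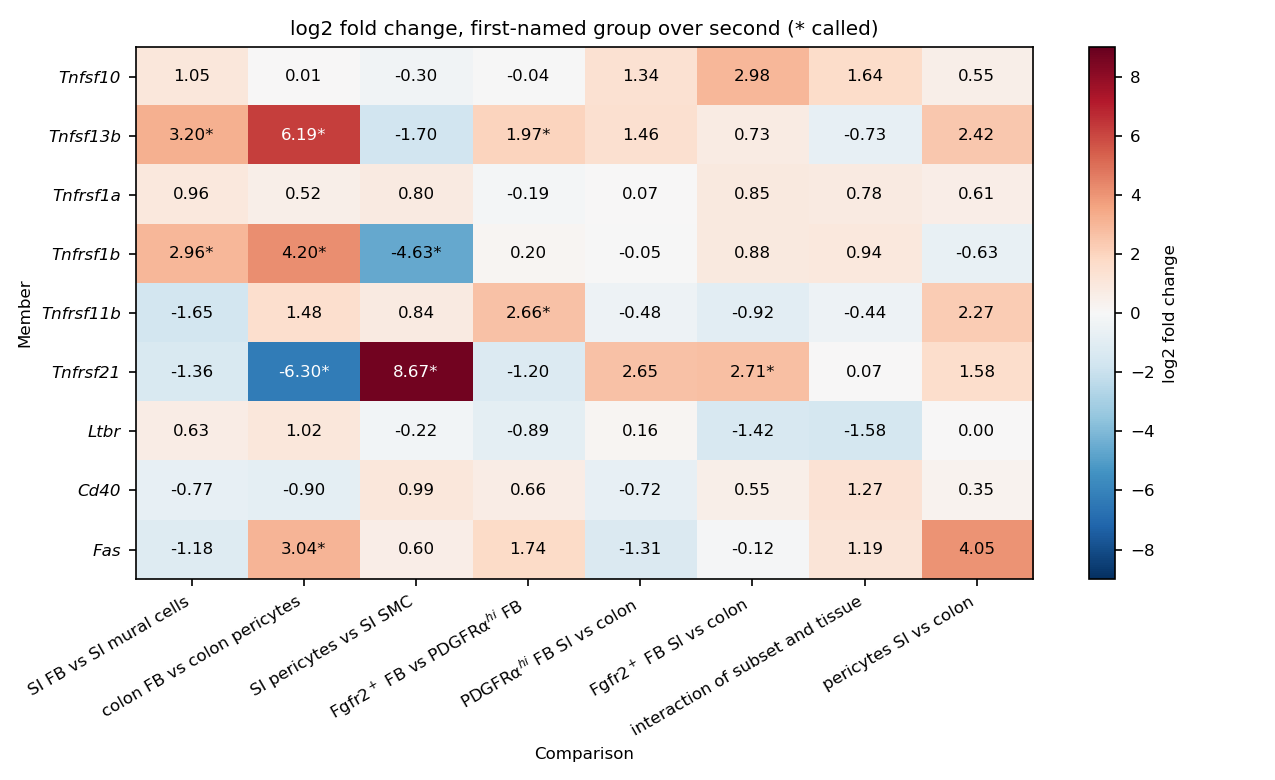
Log2 fold changes of the members tested in each comparison of 2 groups and in the interaction, from blue (lower in the group named first) to red (higher), with an asterisk where the gene was called. *Tnfrsf21* spans -6.30 (colon FB against pericytes) to 8.67 (SI pericytes against SMC).

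Among the FB populations of each tissue, different members were called. Among the 3 SI FB populations, *Tnfrsf21* changed, being highest in PDGFRα hi FB (83.7, 73.4 and 35.4 CPM) and lowest in CD34+ FB (5.24, 4.80 and 5.91 CPM), with a log2 range of 3.59 (edgeR adjusted p = 0.00344). It was 1 of the 9 members tested, beside 3.90% of all 16232 genes, and the median log2 range was 1.75 for the members and 1.04 for all genes. With only the SI FB populations in the model, 3 members were called, and the share of all genes called rose too. *Tnfsf13b* had a log2 range of 1.75 among SI FB (edgeR adjusted p = 0.163) and was called by DESeq2 (1.79, DESeq2 adjusted p = 0.0203), while on protein-coding transcripts the range was 0.71 (edgeR adjusted p = 1). *Ltbr* had a log2 range of 1.90 among SI FB (edgeR adjusted p = 0.572) and was called without the 4 libraries that stood apart (2.1, edgeR adjusted p = 0.0369).

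Among the 4 colon FB populations, BAFF and osteoprotegerin transcripts changed. *Tnfsf13b* was highest in CD90+ FB (207, 183 and 141 CPM) and lowest in PDGFRα hi FB (10.7, 19.9 and 14.4 CPM), with a log2 range of 3.52 (edgeR adjusted p = 0.00083; 3.44 on protein-coding transcripts, edgeR adjusted p = 0.0278). *Tnfrsf11b* was highest in CD81+ FB (73.6, 77.3 and 138 CPM), where every library lay above those of the other colon FB, and lowest in PDGFRα hi FB (4.65, 0.638 and 9.23 CPM), with a log2 range of 4.32 (edgeR adjusted p = 0.00662; range 5.17 without colon PDGFRα hi FB replicate 3). These were 2 of the 9 members tested, beside 4.27% of all 16456 genes, and the median log2 range was 1.27 both for the members and for all genes. *Tnfrsf21* had a log2 range of 1.97 among colon FB (edgeR adjusted p = 0.336) and was called without CD81+ FB replicate 2 (3.32, edgeR adjusted p = 0.0308). A call in 1 tissue and not in the other does not show that the tissues differ.

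*Fgfr2*+ FB and PDGFRα hi FB were sorted from both tissues, and compared irrespective of tissue the osteoprotegerin transcript was higher in *Fgfr2*+ FB, as was the sum of all *Tnfsf13b* transcripts but not of the coding ones by the call. *Tnfsf13b* ran from 59.6 to 214 CPM in the 6 *Fgfr2*+ FB libraries and from 10.7 to 51.2 CPM in the 6 PDGFRα hi FB libraries, with no overlap, and rose 3.93-fold (log2 1.97, SE 0.416, edgeR adjusted p = 0.0139). On protein-coding transcripts *Tnfsf13b* ran from 7.77 to 40.0 CPM and from 5.27 to 19.8 CPM, which overlap, and the call was lost (log2 1.18, edgeR adjusted p = 0.265; edgeR or DESeq2 adjusted p 0.000113 to 0.265 over the alternative settings). *Tnfrsf11b* ran from 6.41 to 40.5 CPM and from 0.638 to 9.23 CPM in the same groups, which overlap, and rose 6.34-fold (log2 2.66, SE 0.597, edgeR adjusted p = 0.0201). These were 2 of the 9 members tested, beside 2.69% of all 15673 genes, and the median log2 fold change was 0.20 for the members and 0.08 for all genes. The *Tnfrsf11b* call was lost without SI PDGFRα hi FB replicate 1 (log2 2.62, edgeR adjusted p = 0.0527) or replicate 2 (2.51, edgeR adjusted p = 0.0522), with 0.0113 to 0.0527 over the 12 left-out libraries. *Fas* (log2 1.74, SE 0.698, edgeR adjusted p = 0.24) and *Ltbr* (log2 -0.89, SE 0.388, edgeR adjusted p = 0.294) were not called.

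Between the tissues, the DR6 transcript was higher in SI than in colon *Fgfr2*+ FB. *Tnfrsf21* stood at 37.5, 35.2 and 8.30 CPM in the SI and at 7.03, 3.90 and 1.55 CPM in the colon, with no overlap, and was 6.56-fold higher in the SI (log2 2.71, SE 0.668, edgeR adjusted p = 0.0347; log2 3.34 without colon *Fgfr2*+ FB replicate 1). It was 1 of the 9 members tested, beside 3.09% of all 15673 genes. The *Tnfrsf21* call was lost without SI *Fgfr2*+ FB replicate 1 (log2 2.44, edgeR adjusted p = 0.0771) or replicate 2 (2.47, edgeR adjusted p = 0.0747) and without colon *Fgfr2*+ FB replicate 2 (2.66, edgeR adjusted p = 0.118) or replicate 3 (2.32, edgeR adjusted p = 0.124), with 0.0124 to 0.124 over the 6 left-out libraries. It was also lost in 4 of the 6 fits that left out a library of PDGFRα hi FB, which share the model, with length-scaled counts (edgeR adjusted p = 0.0542) and with only these populations in the model (edgeR adjusted p = 0.193), within a range of 0.00054 to 0.193 over the alternative settings. *Tnfsf10* stood at 9.02, 5.33 and 33.9 CPM in SI and at 2.69, 2.24 and 1.33 CPM in colon *Fgfr2*+ FB, with no overlap (log2 2.98, SE 0.798, edgeR adjusted p = 0.0515). *Tnfsf10* was not called, though it was without SI *Fgfr2*+ FB replicate 1 (3.29, edgeR adjusted p = 0.0422) or replicate 2 (3.41, edgeR adjusted p = 0.0252) and by DESeq2 (3.01, DESeq2 adjusted p = 0.00115). Without SI *Fgfr2*+ FB replicate 3 with its 33.9 CPM, the log2 fold change of *Tnfsf10* was 1.78 (edgeR adjusted p = 0.201). As the gates of these FB differ between SI and colon, tissue and gate cannot be told apart.

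In PDGFRα hi FB, no member differed between SI and colon by the call with the main settings. By edgeR 0 of the 9 members tested were called, beside 1.76% of all 15673 genes, with 2 members at an unadjusted p below 0.05 and 1 member called by DESeq2. That member was *Tnfrsf21*, at 83.7, 73.4 and 35.4 CPM in the SI and 9.31, 7.66 and 13.0 CPM in the colon, with no overlap (log2 2.65, SE 0.661, edgeR adjusted p = 0.0518; DESeq2 log2 2.63, DESeq2 adjusted p = 0.000944). *Tnfrsf21* was called by edgeR in 4 of the 6 fits that left out a library of *Fgfr2*+ FB, among them that without SI *Fgfr2*+ FB replicate 3 (log2 2.65, edgeR adjusted p = 0.0249). *Tnfsf13b*, at 51.2, 38.9 and 36.8 CPM in the SI and 10.7, 19.9 and 14.4 CPM in the colon, did not overlap either (log2 1.46, SE 0.426, edgeR adjusted p = 0.119). In this comparison 1 member was also called with no filter on low counts, with the stricter filter and with all 30 libraries in 1 model. With only these populations in the model, or without the 4 libraries that stood apart, 1 member was called too. Whether the difference between SI and colon was itself larger in *Fgfr2*+ FB than in PDGFRα hi FB was tested as an interaction. By edgeR 0 of the 9 members were called, beside 1.28% of all 15673 genes, with 1 member at an unadjusted p below 0.05 and 0 members called by DESeq2. For *Tnfrsf21* the interaction was 0.07 (SE 0.859, edgeR adjusted p = 0.997).

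Between SI and colon pericytes, the DR6 transcript was higher in every SI library than in any colon library, without a call when the pericytes were fitted alone. *Tnfrsf21* stood at 1762, 675 and 838 CPM in the SI and at 227, 433 and 449 CPM in the colon, a 2.99-fold difference (log2 1.58, SE 0.475, edgeR adjusted p = 0.396). *Tnfsf13b*, at 2.15, 3.41 and 5.54 CPM in the SI and 0.968, 0.378 and 0.718 CPM in the colon, did not overlap either (log2 2.42, edgeR adjusted p = 0.681). By edgeR 0 of the 9 members tested were called, beside 0% of all 13368 genes. At an unadjusted p below 0.05 there were 1 member and 1091 genes, and DESeq2 called 0 members and 354 genes. DESeq2 gave no adjusted p for *Tnfsf13b*, *Tnfrsf1b* or *Fas* there, so its 0 covers only the other members. With all 30 libraries in 1 model, 1 member was called, and the genes called are counted under the processing.

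The adaptors and death signalling genes, among them the TRAF, RIPK and caspase genes that carry the receptors' signal were tested next. Over the 10 populations 5 of 21 were called by edgeR, beside 25.7% of all genes, and 9 by DESeq2, beside 35.1% of all genes. The median log2 range of the adaptors was 1.96, against 2.98 for all genes. Of the 5 called by edgeR, 2 kept the call with each library left out in turn and 3 kept it with the replicate number as a block, where *Traf2* (edgeR adjusted p = 0.0525) and *Birc2* (0.0537) lost it. In SI FB against mural cells 0 of 21 were called by edgeR, beside 8.61% of all genes (4 at an unadjusted p below 0.05, 0 called by DESeq2; median log2 fold change 0.26). In colon FB against pericytes 2 of 21 were called, 1 in each direction, beside 16.6% of all genes (median log2 -0.11). The lower of these was *Fadd*, an adaptor of death receptors (log2 -1.77, edgeR adjusted p = 0.00289). Its call was lost without colon pericytes replicate 2 (-1.02, edgeR adjusted p = 0.0957; 0.00169 to 0.0957 over the left-out libraries). *Casp8*, which encodes the initiator caspase of death receptors, rose in colon FB (15 to 79.4 CPM) over colon pericytes (6.45, 2.65 and 13.8 CPM), with a log2 fold change of 2.36 (edgeR adjusted p = 0.00891; log2 3.14 without colon pericytes replicate 3).

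Of the NF-κB pathway genes, 3 of 19 were called by edgeR over the 10 populations, beside 25.7% of all genes, and 7 by DESeq2, beside 35.1% of all genes, with a median log2 range of 2.43. Only 1 of the 3 kept the call with each library left out in turn or with the replicate number as a block. With that block the edgeR adjusted p was 0.0801 for *Ikbkb* and 0.0552 for *Rela*, and both calls were also lost with upper-quartile scaling and without the 4 libraries that stood apart, and that of *Rela* with length-scaled counts. The edgeR or DESeq2 adjusted p over the alternative settings ran from 0.00254 to 0.186 for *Ikbkb* and from 0.000777 to 0.0727 for *Rela*. In SI FB against mural cells 0 of 19 were called by edgeR, beside 8.61% of all genes (2 at an unadjusted p below 0.05, 0 called by DESeq2; median log2 0.04). In colon FB against pericytes 1 of 19 was called, lower in FB, beside 16.6% of all genes (2 called by DESeq2, beside 19.8%; median log2 0.34). This was *Chuk*, which encodes the kinase IKKα (log2 -1.69, edgeR adjusted p = 0.00912). The *Chuk* call was lost without colon pericytes replicate 2 (-0.39, edgeR adjusted p = 0.554; 0.00207 to 0.554 over the left-out libraries). It was also lost with upper-quartile scaling (edgeR or DESeq2 adjusted p 0.00192 to 0.554 over the alternative settings). In SI pericytes against SMC 1 of 19 was called, higher in pericytes, beside 8.48% of all genes (3 called by DESeq2, beside 16.4%; median log2 0.95). That gene was *Tnfaip3*, which encodes the NF-κB inhibitor A20, at 36.5, 12.9 and 84.5 CPM in SI pericytes and 5.38, 5.01 and 1.65 CPM in SI SMC (log2 3.45, edgeR adjusted p = 0.011; log2 2.61 without SI pericytes replicate 3). Its call was lost with only these populations in the model (edgeR adjusted p = 0.157; 7.8e-06 to 0.157 over the alternative settings).

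Target genes of TNF and lymphotoxin receptors include adhesion molecules, chemokines and cytokines. Over the 10 populations 8 of the 13 target genes tested were called by edgeR, beside 25.7% of all genes, and 12 by DESeq2, beside 35.1%, with a median log2 range of 5.75 against 2.98 for all genes. In SI FB against mural cells 4 of 13 were called, all higher in FB, beside 4.78% of all genes called higher (median log2 1.28, or 1.38 with genes of 3 counts or fewer in a group set to their lower bound), and in colon FB against pericytes 5 of 13 were called, all higher in FB, beside 7.58% of all genes called higher (median log2 3.16, or 2.56 with such genes at their bound). *Cxcl13*, the chemokine that places B cells, stood at 106, 112 and 27.2 CPM in SI CD34+ FB, at 101, 24.4 and 93.1 CPM in SI *Fgfr2*+ FB, at 2.14, 2.48 and 0.574 CPM in SI PDGFRα hi FB, at 0.317, 0.771 and 0.330 CPM in SI SMC and at 0.215, 0.253 and 0.123 CPM in SI pericytes. SI PDGFRα hi FB overlapped SI SMC. *Cxcl13* rose in SI FB over mural cells (log2 6.10, edgeR adjusted p = 6.38e-06) and in colon FB over pericytes (at least 51.1-fold, edgeR adjusted p = 6.49e-05). *Vcam1*, an adhesion molecule for lymphocytes, ran from 169 to 681 CPM in *Fgfr2*+ FB and from 20.8 to 71.1 CPM in PDGFRα hi FB, with no overlap (log2 3.22, SE 0.402, edgeR adjusted p = 0.000207). *Icam1*, another adhesion molecule, stood at 85.7, 143 and 27.7 CPM in SI pericytes and at 10.8, 8.29 and 0.660 CPM in SI SMC (log2 3.69, edgeR adjusted p = 0.0059; log2 3.05 without SI pericytes replicate 2), a call lost with only these populations in the model (edgeR adjusted p = 0.143; 4.53e-06 to 0.143 over the alternative settings). Of the other pathway genes called, beyond the members, those that kept the call with each library left out in turn were 16 of 26 over the 10 populations, 4 of 8 in SI FB against mural cells, 6 of 10 in colon FB against pericytes, 5 of 9 in SI pericytes against SMC, 1 of 4 among SI FB, 0 of 3 among colon FB and 1 of 4 in *Fgfr2*+ FB against PDGFRα hi FB. Between SI and colon they were 0 of 1 in PDGFRα hi FB and 1 of 3 in *Fgfr2*+ FB, and in the interaction 1 of 3.

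For each tested member, the tested genes with the most similar log2 levels over the 10 population means were listed as a description. Those of *Tnfrsf21*, *Tnfrsf1b*, *Tnfsf13b* and *Tnfrsf11b* are given here. *Tnfrsf21* was closest to *Foxs1* (Pearson r = 0.985), *Rrp9* (0.967) and *Snrk* (0.964). *Tnfrsf1b* was closest to *Ramp2* (r = 0.986), *Clmp* (0.982) and *Fam174b* (0.981). *Tnfsf13b* was closest to *Rab33b* (r = 0.976), *Rap2c* (0.976) and *Tmem138* (0.955), and *Tnfrsf11b* to *Fap* (r = 0.969), *Maf* (0.926) and *Fcgr4* (0.914). With 17555 genes to choose from and 10 populations, high values of r arise by selection.

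The promoters of members called in more than 1 comparison are printed, since these genes separated the populations. Each line gives the 250 bases before the annotated start, 5′ to 3′ on the gene's strand, from the RefSeq promoter set of build GRCm38.p6: chr8:10006383-10006632 on the + strand for *Tnfsf13b* (1 of 2 promoter entries of the gene, the one at the start of its transcript with most counts), chr4:145246871-145247120 on the − strand for *Tnfrsf1b* and chr17:43016305-43016554 on the + strand for *Tnfrsf21*. Both strands were searched, overlaps included, for the NF-κB motif, the CArG box, the letters TGGGAA bound by RBPJ, and the letters TATAAA of the TATA box. Of the 3 promoters printed, 0 held a match, so no base is in capitals. Of all 32851 promoters of this length, 7.25% held the NF-κB motif, 1.47% the CArG box, 21.6% TGGGAA and 12.4% TATAAA. No match says only that these letters are not in this window. *Tnfrsf11b* has no entry.
Tnfsf13b: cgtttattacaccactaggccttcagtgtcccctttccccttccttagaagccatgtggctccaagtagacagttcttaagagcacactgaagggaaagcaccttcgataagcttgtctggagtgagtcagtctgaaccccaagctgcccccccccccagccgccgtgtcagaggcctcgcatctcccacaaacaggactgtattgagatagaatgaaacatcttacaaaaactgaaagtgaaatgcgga
Tnfrsf1b: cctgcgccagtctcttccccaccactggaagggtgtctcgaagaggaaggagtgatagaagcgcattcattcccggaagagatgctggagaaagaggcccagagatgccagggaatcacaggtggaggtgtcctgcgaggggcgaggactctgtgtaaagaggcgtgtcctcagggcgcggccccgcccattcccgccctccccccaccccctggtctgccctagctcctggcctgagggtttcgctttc
Tnfrsf21: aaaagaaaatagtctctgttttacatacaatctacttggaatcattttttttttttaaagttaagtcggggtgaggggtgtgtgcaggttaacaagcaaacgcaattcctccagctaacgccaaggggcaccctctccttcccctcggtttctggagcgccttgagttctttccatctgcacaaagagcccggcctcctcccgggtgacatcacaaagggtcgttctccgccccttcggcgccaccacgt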

How the data were processed

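Bulk RNA-seq of 30 libraries from 10 sorted populations was used. Per the submitters' processing notes, reads were trimmed with Trim Galore 0.4.0, checked with FastQC 0.11.2 and quantified with kallisto 0.42.5 on mouse (mm10, GRCm38). The authors ran kallisto to make the deposited files, which hold an estimated count and a TPM for each transcript. Of 98492 transcripts, 97116 matched GENCODE M21 and were summed to 32342 genes. Estimated counts, which are not whole numbers, were rounded to integers. The most abundant transcript by TPM had no match in 28 of the 30 libraries. Total counts ran from 2245052 to 19096945 (median 9601683).

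Tests used edgeR 4.0.16 (quasi-likelihood, TMM, R 4.3.3, limma 3.58.1) on genes that reached 6 counts in 3 or more libraries of the fit. The fits kept the default prior count of edgeR, and a prior count of 2 went only into the log2 levels used for correlations. A call needed an adjusted p below 0.05 and a log2 fold change beyond 1.5. Standard errors are the log2 fold change over the square root of F. Separate models held the SI populations, the colon populations, the *Fgfr2*+ and PDGFRα hi FB of both tissues, the pericytes, and all libraries. FB were compared with mural cells or pericytes as means of the population coefficients, and *Fgfr2*+ with PDGFRα hi FB as 6 against 6 irrespective of tissue. The fits were tested on simulated data, and the outcome is not reported here. Alternatives were DESeq2 1.42.0, RLE and upper-quartile scaling, no filter, a filter of 10 counts, length-scaled counts, the replicate number as a term, other sets of samples, other fold thresholds, each library of the populations compared left out in turn (90 refits), 4 libraries left out together and the members' protein-coding transcripts alone. A fold change against a group with at most 3 counts in each library is given as a lower bound. That bound covers counting error only. Tables and plots used Python 3.11.15, pandas 2.3.3 and matplotlib 3.10.9.

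CPM per kb used each gene's mean effective length over the 30 libraries. This was chosen after the lengths of single libraries had been seen to give unstable values. Ambiguity was measured as the share of 31-base stretches found in other genes.

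The members and lists were chosen with earlier results of these data known. Named genes are the 10 members and some, not all, of the genes called in the fixed lists. These lists were superfamily ligands and receptors, adaptors and death signalling, NF-κB pathway and target genes. Also named are *Tnfsf12*, the ligand genes with at most 3 counts in every library and the read-through gene *Tnfsfm13*. The others are the 3 genes most like each of *Tnfrsf21*, *Tnfrsf1b*, *Tnfsf13b* and *Tnfrsf11b*, and markers of the populations and of other cell types. The result of 1 marker list is not reported here.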

Additional observations from a re-analysis of the deposited data

Results flagged for a closer look

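The difference between SI and colon was tested as an interaction, and by edgeR 3 of the 77 genes of the pathway lists tested beyond the members differed between *Fgfr2*+ FB and PDGFRα hi FB in it, beside 1.28% of all 15673 genes. For *Tnfsf18* (GITR ligand) the interaction was 8.85 in log2 (SE 1.83, edgeR adjusted p = 0.0209), with 5.80, 14.8 and 14.2 CPM in SI and 0.620, 0.781 and 0 CPM in colon *Fgfr2*+ FB against 0.268, 0.113 and 0 CPM in SI and 3.55, 2.3 and 1.49 CPM in colon PDGFRα hi FB. SI PDGFRα hi FB held at most 3 *Tnfsf18* counts per library, so the size of this value depends on the prior count of the model. The *Tnfsf18* call was lost without colon *Fgfr2*+ FB replicate 2 (edgeR adjusted p = 0.0518), colon PDGFRα hi FB replicate 1 (0.0578), or SI PDGFRα hi FB replicate 2 (0.087) or 3 (0.0503), with 0.0182 to 0.087 over the left-out libraries (log2 8.28 to 9.63). For *Cxcl13* it was 5.05 (SE 1.01, edgeR adjusted p = 0.0174), with 101, 24.4 and 93.1 CPM in SI and 6.51, 27.0 and 21.2 CPM in colon *Fgfr2*+ FB against 2.14, 2.48 and 0.574 CPM in SI and 10.5, 8.55 and 22.4 CPM in colon PDGFRα hi FB. The *Cxcl13* call was lost without colon *Fgfr2*+ FB replicate 3 (edgeR adjusted p = 0.0524) or colon PDGFRα hi FB replicate 3 (0.0601), with 0.00815 to 0.0601 over the left-out libraries. It was also lost with a replicate block (edgeR adjusted p = 0.0558; 1.78e-05 to 0.0558 over the alternative settings). For *Vcam1* it was 2.45 (SE 0.415, edgeR adjusted p = 0.00547), with 681, 493 and 327 CPM in SI and 169, 247 and 287 CPM in colon *Fgfr2*+ FB against 25.9, 23.0 and 20.8 CPM in SI and 50.6, 48.5 and 71.1 CPM in colon PDGFRα hi FB. The *Vcam1* call held without any library and was lost with all 30 libraries in 1 model (edgeR adjusted p = 0.502; 4.89e-06 to 0.502 over the alternative settings). The gates of both FB differ between SI and colon, and the cause was not tested.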

How the results depend on the processing

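With 3 mice per population, small differences could be missed. No member or other pathway gene called with all libraries between 2 groups, or in the interaction, turned direction under the alternative settings. Calls over more than a pair of populations have no direction and are not covered by this. *Fas*, not called in SI FB against mural cells or in SI pericytes against SMC, turned direction there without libraries that stood apart. Counts that moved by over 1.5 times are given by alternative. Upper-quartile scaling called 4 genes between SI and colon pericytes. No filter called 339 genes in the interaction, 18 between the pericytes and 1 member between SI and colon PDGFRα hi FB. The stricter filter called 3 genes between the pericytes, 1 member between SI and colon PDGFRα hi FB and 2 members between SI and colon *Fgfr2*+ FB, where length-scaled counts also called 2 members. DESeq2 called 1029 genes among SI FB (2 members), 1204 among colon FB, 2656 in SI pericytes against SMC, 697 in *Fgfr2*+ FB against PDGFRα hi FB, 518 (1 member) between SI and colon PDGFRα hi FB, 563 in the interaction and 354 between the pericytes, and 1081 as genes called, Fgfr2+ FB SI versus colon (2 members). All 30 libraries in 1 model called 166 (1 member) between SI and colon PDGFRα hi FB, 255 between SI and colon *Fgfr2*+ FB, 116 in the interaction and 998 (1 member) between the pericytes. With only the populations compared, 1298 (3 members) were called among SI FB, 390 (1 member) in SI pericytes against SMC, 1 member between SI and colon PDGFRα hi FB and 251 (0 members) between SI and colon *Fgfr2*+ FB. Without the 4 libraries that stood apart, an alternative chosen after the values had been seen, 1151 (2 members) were called among SI FB, 2 between the pericytes and 1 member between SI and colon PDGFRα hi FB. On protein-coding transcripts of the members, an alternative also chosen after the values had been seen, 1 member was called in *Fgfr2*+ FB against PDGFRα hi FB, where *Tnfsf13b* lost the call. The population with the highest level changed for *Tnfsf10*, *Tnfsf13b*, *Tnfrsf1a*, *Tnfrsf1b*, *Ltbr* and *Cd40* with TPM, and for *Tnfrsf1a* with upper-quartile scaling.

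Leaving out 1 library of the populations compared at a time, genes called (members) ran from 3996 to 5040 (4 to 6) over the 10 populations, 1017 to 1856 (2 to 3) in SI FB against mural cells, 2419 to 2849 (3 to 4) in colon FB against pericytes, 1007 to 2170 (2 to 3) in SI pericytes against SMC, 412 to 574 (1 to 1) among SI FB, 453 to 717 (2 to 3) among colon FB, 310 to 424 (1 to 2) in *Fgfr2*+ FB against PDGFRα hi FB, 183 to 219 (0 to 0) between SI and colon PDGFRα hi FB, 274 to 492 (0 to 1) between SI and colon *Fgfr2*+ FB, 141 to 225 (0 to 0) in the interaction and 0 to 1 (0 to 0) between the pericytes. Leaving out 1 library of the other populations in the fit, they ran from 577 to 861 (1 to 1) among SI FB, 786 to 884 (2 to 2) among colon FB, 1151 to 1535 (2 to 2) in SI pericytes against SMC, 243 to 341 (0 to 1) between SI and colon PDGFRα hi FB and 377 to 492 (0 to 1) between SI and colon *Fgfr2*+ FB.

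With the replicate number as a term (replicate block), the counts were 3752 (4 members) for genes called, all 10 populations, 1082 (2) for genes called, SI FB versus SI mural cells, 2249 (3) for genes called, colon FB versus colon pericytes, 562 (1) for genes called, among SI FB populations, 586 (2) for genes called, among colon FB populations, 1176 (2) for genes called, SI pericytes versus SI SMC, 339 (2) for genes called, Fgfr2+ FB versus PDGFRahi FB, 252 (0) for genes called, PDGFRahi FB SI versus colon, 380 (1) for genes called, Fgfr2+ FB SI versus colon, 175 (0) for genes called, interaction of subset and tissue, and 0 (0) between the pericytes. The block moved no count of calls by over 1.5 times. With it the edgeR adjusted p was 0.0558 for *Cxcl13* in the interaction, 0.096 for *Tnfsf10* over the 10 populations and 0.0712 for *Fas* in colon FB against pericytes. It changed no other call of a member. Of the other pathway genes called, those still called with the block were 20 of 26 over the 10 populations, 6 of 8 in SI FB against mural cells, 10 of 10 in colon FB against pericytes, 4 of 4 among SI FB, 1 of 3 among colon FB, 7 of 9 in SI pericytes against SMC, 3 of 4 in *Fgfr2*+ FB against PDGFRα hi FB, 0 of 1 between SI and colon PDGFRα hi FB, 1 of 3 between SI and colon *Fgfr2*+ FB and 2 of 3 in the interaction. The main tests do not pair the samples by number. Libraries with the same number correlated with a mean r of 0.00751 over 135 pairs (-0.113 to 0.135, 1 above 0.1). A low mean r over all genes does not show that the samples are unpaired. Of the 30 libraries, 23 were closest to their own number, a count that was not tested against chance. The labels name 3 mice, and the study describes SI and colon subsets as sorted from the same mice. Libraries of the same number may therefore share a mouse or a sort. The study describes the bulk data as coming from 3 independent experiments, with 3 independent sorts of each FB population it compared. Neither the study's text nor the labels tie a number to a mouse, a sort or an experiment, and which libraries share one was not settled.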
